A study of Mus musculus with 16 samples.

Results

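The genes described here encode receptors for glutamate, acetylcholine and the monoamines (serotonin, dopamine, noradrenaline and histamine) in the mouse hypothalamus. They were chosen by name, as protein-coding genes whose symbol starts with Gria, Grin, Grik, Grid, Grm, Chrn, Chrm, Htr, Drd, Adra, Adrb or Hrh followed by a digit or by a letter and a digit, and which stand in at least 1 of the authors' deposited tables. The rule gave 39 of the 7233 protein-coding genes in those tables. It also caught 3 genes that share only the letters of a receptor name, Htra2 and Htra3, which encode serine proteases, and Grid2ip, which encodes a postsynaptic scaffold protein. They are described apart, which leaves 36 receptor subunits.

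The study compared RNA on tagged ribosomes of neurons that express prepronociceptin (Pnoc) with RNA of the hypothalamus. All mice were PNOC-L10a-EGFP animals aged 10 to 12 weeks, of the strain C57BL/6N, whose targeted cells carry the ribosomal protein L10a joined to EGFP, so that their ribosomes can be precipitated through that tag. The feeding was 3 days of control diet (chow) or 3 days of high-fat diet. Each diet had 4 input libraries, from RNA before precipitation, and 4 immunoprecipitate libraries, 16 in all. Input and immunoprecipitate titles share the numbers 1 to 4 within a diet, and the labels do not say whether a shared number means shared tissue. The labels do not name the promoter that drives the transgene, nor say whether a library is 1 animal or a pool, and no immunoprecipitate from mice without the tag was analysed here. Each deposited table gives a single FPKM (fragments scaled by transcript length and library size) for input and a single FPKM for immunoprecipitate, so the read depth and the spread between libraries are unknown.

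Both tables hold only entries that the authors marked significant, with a q-value (a p-value adjusted for multiple tests) of at most 0.05. A receptor that is not listed may have been untested or not significant, and cannot be called unchanged. Pnoc, the targeted gene, had 4.62 FPKM in the chow input and 19.9 FPKM in the chow immunoprecipitate, and 4.35 and 19.8 FPKM after the high-fat diet. Of 12 markers of neurons 10 were enriched and 1 was depleted in chow, with a median log2 fold of 0.62, while all 12 markers of oligodendrocytes (median -3.41) and all 9 listed of 12 markers of microglia (median -3.41) were depleted. The log2 folds here were recomputed as immunoprecipitate over input. Their standard errors (SE) come from the authors' deposited test statistic and are larger than those that the deposited p-values imply. In bulk tissue, fewer cells of a type and less RNA per cell cannot be told apart.

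Glutamate acts on ion channels and on receptors coupled to G proteins. AMPA, NMDA and kainate receptors are channels built from several subunits, and the metabotropic receptors signal through Gq or through Gi/o, which inhibits adenylyl cyclase. Acetylcholine likewise has nicotinic channels and muscarinic G protein coupled receptors, while nearly all monoamine receptors are coupled to G proteins, the serotonin channel of the Htr3 genes being the exception. In the hypothalamus these receptors carry fast excitation and the modulation of feeding, arousal and hormone release.

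In chow-fed mice, 22 of 30 listed receptor subunits were enriched on tagged ribosomes and 8 were depleted. Of all listed chow tests 53.8% were enriched and 46.2% depleted. The median log2 fold of the listed receptors was 0.60, beside 0.37 over all listed tests. After the high-fat diet 25 of 32 receptors were enriched and 7 depleted (all tests 55.2% and 44.8%), with a median of 0.57 beside 0.39. Counted with the 3 genes caught by name alone, 24 were enriched and 8 depleted in chow, and 25 and 8 after the high-fat diet. At least a 2-fold enrichment was reached by 4 receptors in chow (Htr3a, Hrh3, Grin1 and Adra1b; all tests 4.38%) and by 2 after the high-fat diet (Grin1 and Drd5; all tests 3.24%). At least a 2-fold depletion was reached by 5 in chow (Chrnb3, Chrna6, Chrna5, Grm3 and Chrna2; all tests 28.7%) and by 3 after the high-fat diet (Chrnb3, Chrna6 and Grm3; all tests 28.2%). The annotation of the same genome (GENCODE M21) holds 76 receptor genes of these families, of which 30 and 32 were listed. Of all 22028 annotated protein-coding genes, 28.9% and 28.2% were listed.

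The folds can also be read relative to all listed tests, which lowers every one of them. Among listed tests that reached 1 FPKM, the centre (median log2 fold) was 0.41 in chow and 0.42 after the high-fat diet. Relative to that centre 20 of 30 receptors lay above and 10 below in chow, and 22 and 10 of 32 after the high-fat diet. Gria4 in both diets, Htr2c in chow, and Grik3 and Htr5a after the high-fat diet are enriched as deposited and lie below the centre. The higher folds shrink as well, that of Grin1 from 1.04 to 0.63 and that of Hrh3 from 1.05 to 0.64 in chow.

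**Figure D1:**
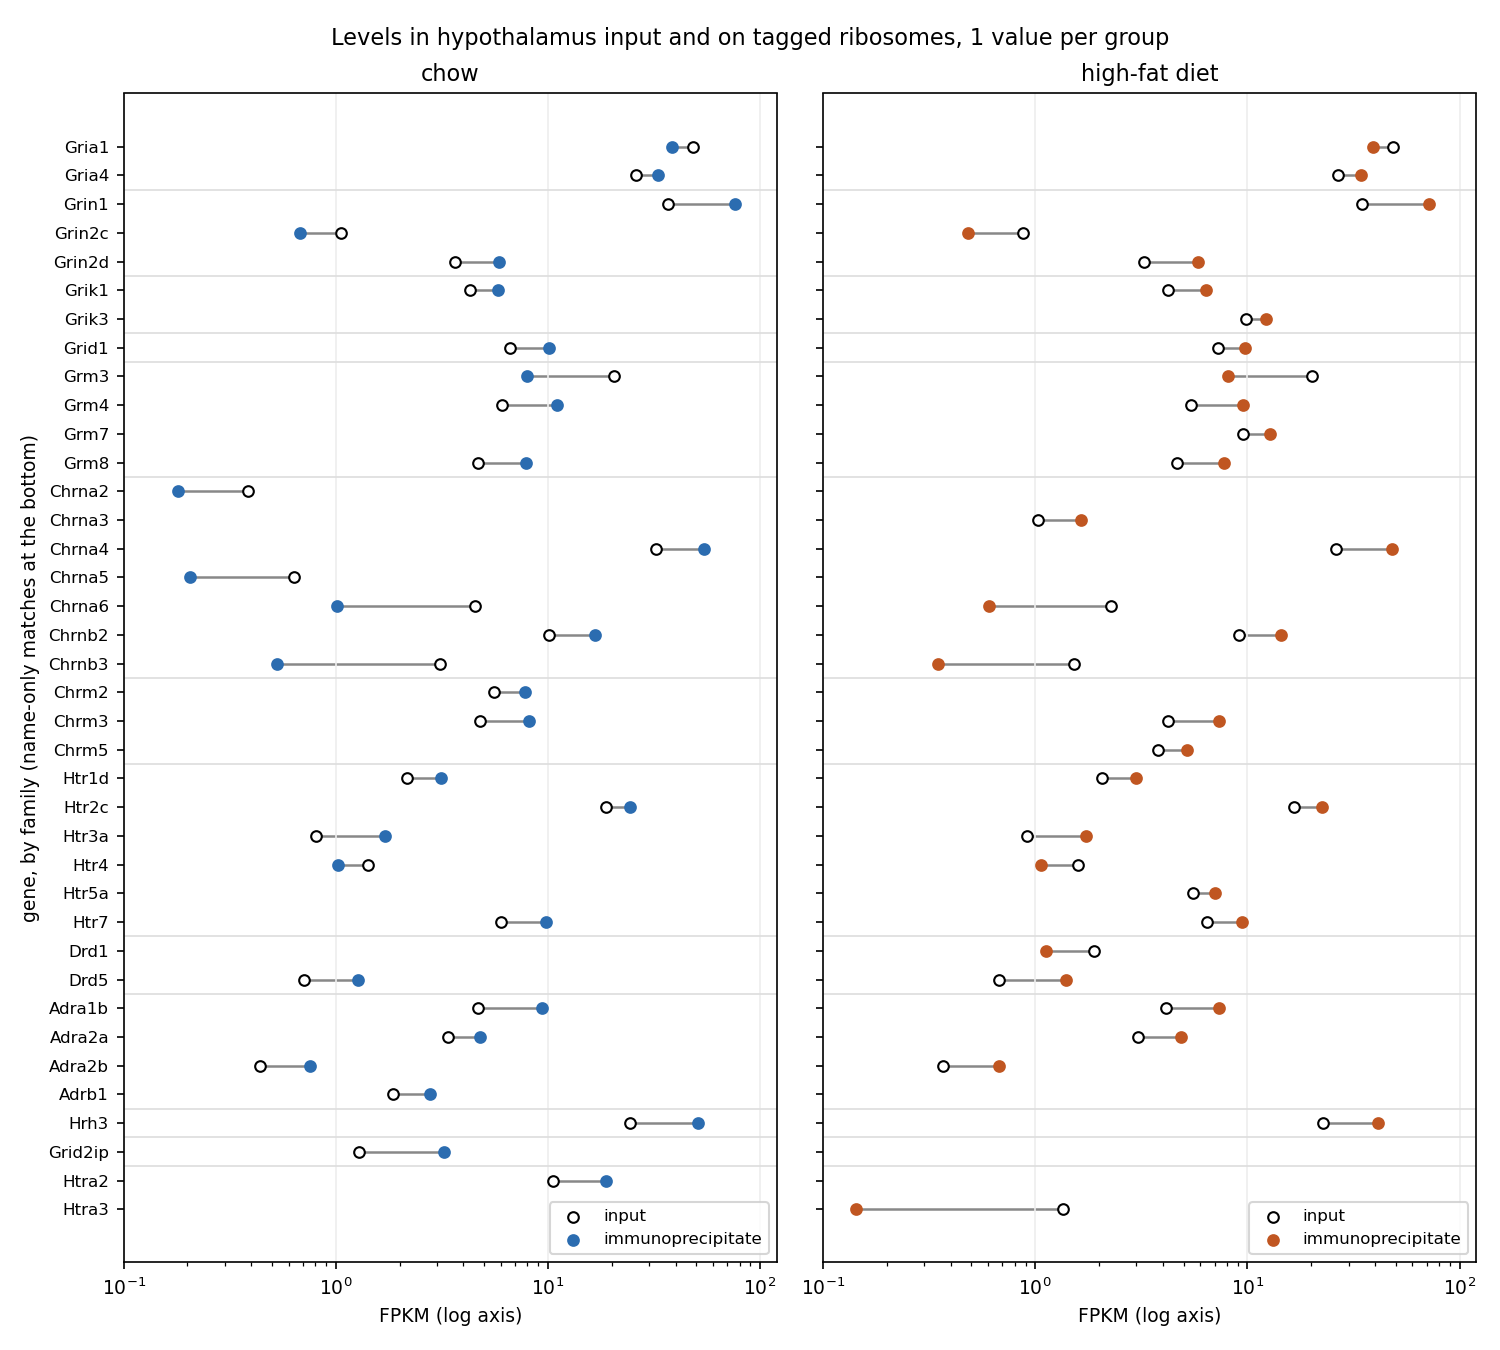
FPKM of each gene described here in input (open points) and immunoprecipitate (filled points) in chow (left) and high-fat diet (right) on a log axis, with 1 value per group and no error, and with the 3 genes that match by name alone at the bottom. Most filled points lie to the right of the open ones, while Chrna6, Chrnb3 and Grm3 lie far to the left in both diets and a gene without points was not listed in that table.

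Among AMPA receptor subunits, which form the channels of fast excitation, the pair of listed genes went in opposite directions. Gria1 had 48.1 FPKM in the chow input and 38.6 FPKM in the immunoprecipitate, and 48.4 and 39.0 FPKM after the high-fat diet. It was depleted by a small amount, to 80.2% and 80.7% of its input (log2 fold -0.32, SE 0.27, and -0.31, SE 0.28). Gria4 had 25.9 and 33.0 FPKM in chow and 26.8 and 34.4 FPKM after the high-fat diet, log2 folds of 0.35 (SE 0.25) and 0.36 (SE 0.26) that become -0.062 in both diets once centred. In the authors' deposited tables the q-values of both genes lie between 0.0289 and 0.0388. Gria2 and Gria3 were not listed.

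Grin1, the subunit that every NMDA receptor needs, was the most abundant of all listed receptors on tagged ribosomes in both diets. It had 37.0 FPKM in the chow input and 75.8 FPKM on ribosomes, which is 2.05-fold more (log2 fold 1.04, SE 0.23). After the high-fat diet the values were 34.5 and 71.8 FPKM (2.08-fold, log2 fold 1.06, SE 0.23). The authors' deposited table gives a q-value of 0.000379 in each diet, the lowest it holds. Many other genes share this q-value, which belongs to the smallest deposited p-value. In chow 3365 of 6686 tests had a statistic and a larger p-value, and after the high-fat diet 3448 of 6540. Grin2d, a regulatory subunit, was also enriched, from 3.65 to 5.88 FPKM in chow (log2 fold 0.69, SE 0.37) and from 3.26 to 5.84 FPKM after the high-fat diet (0.84, SE 0.39). Grin2c, a related regulatory subunit, was depleted from 1.06 to 0.678 FPKM in chow (log2 fold -0.65, SE 0.39) and from 0.875 to 0.481 FPKM after the high-fat diet (-0.86, SE 0.45). In the authors' deposited tables Grin2d has q-values of 0.0019 and 0.000379, and Grin2c of 0.00834 and 0.00244. Neither Grin2a nor Grin2b, which encode the main partners of Grin1 in the forebrain, was listed, nor were Grin3a and Grin3b. The deposited span of Grin2d also covers the genes Grwd1 and Kdelr1, and Grin1 has a non-coding gene on the other strand. Among other receptors, Hrh3, Htr3a, Drd5, Grin2c, Grm4, Grm8 and Grid1 also overlap non-coding genes on the other strand. The span of Htr2c overlaps 8 other annotated genes, none of them protein-coding. Reads of such overlapping genes may be shared, because the labels do not say that strand was used.

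Kainate and delta receptor genes were enriched by less. Grik1, a kainate receptor subunit, rose from 4.30 to 5.81 FPKM in chow (log2 fold 0.44, SE 0.28) and from 4.23 to 6.36 FPKM after the high-fat diet (0.59, SE 0.29). Grik3, another kainate receptor subunit, was listed after the high-fat diet only, with 9.85 FPKM in input and 12.2 FPKM in immunoprecipitate (0.31, SE 0.23; -0.12 once centred). Grid1, a delta receptor that binds cerebellins at synapses, had 6.62 and 10.1 FPKM in chow (0.61, SE 0.28) and 7.23 and 9.79 FPKM after the high-fat diet (0.44, SE 0.30). In the authors' deposited tables the q-values are 0.0127 and 0.000379 for Grik1, 0.0387 for Grik3, and 0.000379 and 0.0113 for Grid1. The loci of Grid1, Gria4 and Grm8 are merged there with the identifier of a small RNA. Grik2, Grik4 and Grik5 were not listed.

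The listed metabotropic glutamate receptors were enriched with the exception of Grm3. Grm4 and Grm8 are presynaptic receptors coupled to Gi/o. Grm4 had the highest fold of the family in chow, from 6.06 to 11 FPKM (log2 fold 0.86, SE 0.26), and rose from 5.41 to 9.49 FPKM after the high-fat diet (0.81, SE 0.28). Grm8 had 4.70 and 7.90 FPKM in chow (0.75, SE 0.32) and 4.68 and 7.73 FPKM after the high-fat diet (0.72, SE 0.33). Grm7, of the same subgroup, was listed after the high-fat diet only, with 9.50 and 12.8 FPKM (0.43, SE 0.38). The authors' deposited table gives 0.0256 as the q-value of Grm7, and 0.000379 in both diets for Grm4 and Grm8. Grm2, Grm5 and Grm6 were not listed.

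Grm3, a receptor coupled to Gi/o that astrocytes also carry, was the most abundant receptor among those depleted at least 2-fold. It fell from 20.5 to 8.0 FPKM in chow, to 38.9% of input (log2 fold -1.36, SE 0.25), and from 20.2 to 8.13 FPKM after the high-fat diet, to 40.3% (-1.31, SE 0.26). The authors' deposited table gives q = 0.000379 in each diet. All 12 markers of astrocytes were depleted in both diets, to a median of 11.9% and 12.2% of input, and each but Aldoc (log2 fold -0.76 in both diets) had a lower fold than Grm3. Their summed level went from 1538 to 510 FPKM in chow and from 1508 to 528 FPKM after the high-fat diet. Most of the immunoprecipitate sum came from Aldoc, with 354 and 374 FPKM, and none of the markers was at 0. The part of astrocyte RNA in the value of Grm3 was not tested.

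The 250 bases before the start of Grin1 and of Grm3 are shown because these genes hold the highest and the lowest fold of the glutamate receptors in both diets. They are RefSeq sequences of build GRCm38.p6, given 5′ to 3′ on the minus strand, from chr2:25319188-25319437 for Grin1 and chr5:9725353-9725602 for Grm3. Capitals mark GGGCGG on either strand, a GC box as bound by factors of the Sp family.
Grin1: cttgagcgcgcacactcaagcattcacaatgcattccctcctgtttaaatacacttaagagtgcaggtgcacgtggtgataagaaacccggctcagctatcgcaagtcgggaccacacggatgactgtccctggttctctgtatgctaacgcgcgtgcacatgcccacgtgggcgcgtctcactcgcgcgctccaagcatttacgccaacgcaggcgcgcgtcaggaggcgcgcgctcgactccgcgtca
Grm3: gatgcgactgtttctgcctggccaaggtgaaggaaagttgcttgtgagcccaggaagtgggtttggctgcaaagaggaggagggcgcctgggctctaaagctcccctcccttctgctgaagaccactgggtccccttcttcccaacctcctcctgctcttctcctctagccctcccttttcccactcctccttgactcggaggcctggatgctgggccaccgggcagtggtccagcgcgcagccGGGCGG
Grin1 holds no GGGCGG in this window and Grm3 holds 1. CANNTG, the E-box that basic helix-loop-helix factors bind, occurs at 4 places in Grin1 and at 0 in Grm3.

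Nicotinic receptor subunits held both directions, with the widest range of folds among the families. In chow, of 6 listed subunits 2 were enriched and 4 depleted, and after the high-fat diet 3 of 5 were enriched and 2 depleted. Chrna4 and Chrnb2 encode the subunits of the most common nicotinic receptor of the brain. Chrna4 had 32.2 FPKM in the chow input and 54.6 FPKM in the immunoprecipitate (log2 fold 0.76, SE 0.28), and 26.1 and 47.8 FPKM after the high-fat diet (0.87, SE 0.28). Chrnb2 had 10.2 and 16.6 FPKM in chow (0.71, SE 0.49) and 9.10 and 14.4 FPKM after the high-fat diet (0.66, SE 0.48). The authors' deposited tables hold q-values of 0.000379 for Chrna4 in both diets and of 0.0184 and 0.0352 for Chrnb2. On tagged ribosomes Chrna4 was the second most abundant listed receptor of the chow table. The deposited span of Chrnb2 reaches into the neighbouring gene Adar, so its value may hold some of the reads of that gene.

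Chrna6 and Chrnb3 encode subunits that assemble together in receptors of midbrain dopamine neurons, and they had the lowest folds of all receptors in both diets. Chrna6 fell from 4.55 to 1.02 FPKM in chow, to 22.4% of input (log2 fold -2.16, SE 0.35), and from 2.27 to 0.608 FPKM after the high-fat diet, to 26.8% (-1.90, SE 0.43). Chrnb3 fell from 3.11 to 0.526 FPKM, to 16.9% (-2.56, SE 0.37), and from 1.52 to 0.348 FPKM, to 22.8% (-2.13, SE 0.45). The authors' deposited table gives q = 0.000379 for each of these 4 comparisons. The genes are neighbours on chromosome 8 (GRCm38.p6), with Chrnb3 on the plus strand at 27368711 to 27399730 and Chrna6 on the minus strand at 27403212 to 27413944, 3481 bases apart. The level of Chrna6 was 1.46 times that of Chrnb3 in the chow input and 1.49 times in the high-fat input, and 1.93 and 1.75 times on ribosomes.

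The other listed nicotinic subunits were low. Chrna5, an accessory subunit, went from 0.635 to 0.205 FPKM in chow, 32.2% of input (log2 fold -1.63, SE 0.94). Chrna2 went from 0.387 to 0.181 FPKM in chow, 46.8% of input (-1.10, SE 0.70). Both stayed under 1 FPKM in each group and were not listed after the high-fat diet. Chrna3, which forms ganglionic receptors, was listed after the high-fat diet only and was enriched from 1.03 to 1.64 FPKM (0.68, SE 0.37). It lies 2331 bases from Chrna5 on chromosome 9, on the other strand (Chrna5 at 54980880 to 55007779, Chrna3 at 55010111 to 55026562). In the authors' deposited tables the q-values are 0.00132 for Chrna5, 0.00493 for Chrna2 and 0.0027 for Chrna3. Since no table lists both, their folds cannot be set against each other within a diet. Chrna7, Chrnb4, Chrna1, Chrna9, Chrna10 and Chrnb1 were not listed.

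The windows before the starts of Chrna5 and Chrna3 are shown because these neighbours were listed in opposite directions, though in different diets. The entries of RefSeq (GRCm38.p6) used here are chr9:54980630-54980879 on the plus strand and chr9:55026563-55026812 on the minus strand. GGGCGG on either strand is in capitals.
Chrna5: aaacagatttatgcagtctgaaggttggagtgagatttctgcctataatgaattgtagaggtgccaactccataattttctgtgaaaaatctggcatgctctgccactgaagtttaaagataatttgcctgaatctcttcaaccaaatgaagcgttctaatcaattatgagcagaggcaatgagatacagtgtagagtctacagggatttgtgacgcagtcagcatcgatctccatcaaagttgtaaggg
Chrna3: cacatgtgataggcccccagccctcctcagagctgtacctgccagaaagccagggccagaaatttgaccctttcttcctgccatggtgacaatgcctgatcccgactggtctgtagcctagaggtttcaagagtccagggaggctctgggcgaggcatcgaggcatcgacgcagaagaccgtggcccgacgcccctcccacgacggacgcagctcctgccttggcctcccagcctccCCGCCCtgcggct
Chrna5 has no GGGCGG in this window, and Chrna3 has 1. RefSeq lists another start for Chrna5 further along the gene, whose window (not shown) holds 4.

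Muscarinic receptors were enriched where listed. Chrm3, which signals through Gq, rose from 4.77 to 8.12 FPKM in chow (log2 fold 0.77, SE 0.32) and from 4.24 to 7.38 FPKM after the high-fat diet (0.80, SE 0.35). Chrm2, coupled to Gi/o, was listed in chow only, with 5.59 and 7.80 FPKM (0.48, SE 0.26). Chrm5, coupled to Gq, was listed after the high-fat diet only, with 3.80 and 5.21 FPKM (0.45, SE 0.35). The authors' deposited tables give q-values of 0.000379 for Chrm3 in both diets, 0.0019 for Chrm2 and 0.0406 for Chrm5. Chrm1 and Chrm4 were not listed. The deposited span of Chrm3 covers 10 other annotated genes, none of them protein-coding.

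Serotonin receptors were enriched with the exception of Htr4. Htr2c, a receptor coupled to Gq through which serotonin lowers food intake, was the most abundant, with 18.7 FPKM in the chow input and 24.4 FPKM in the immunoprecipitate (log2 fold 0.38, SE 0.23). After the high-fat diet it had 16.6 and 22.5 FPKM (0.44, SE 0.23), and once centred its folds were -0.029 in chow and 0.019 after the high-fat diet. Htr7, coupled to Gs, rose from 6.02 to 9.80 FPKM in chow (0.70, SE 0.27) and from 6.44 to 9.48 FPKM after the high-fat diet (0.56, SE 0.27). Htr3a, the serotonin-gated channel, had the highest fold of all receptors in chow, from 0.805 to 1.7 FPKM (1.08, SE 0.47), and went from 0.917 to 1.73 FPKM after the high-fat diet (0.91, SE 0.47). Its immunoprecipitate stayed under 2 FPKM in both diets.

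Htr1d, coupled to Gi/o, had 2.18 and 3.13 FPKM in chow (0.52, SE 0.36) and 2.07 and 2.99 FPKM after the high-fat diet (0.53, SE 0.39). Htr5a, also coupled to Gi/o, was listed after the high-fat diet only, with 5.56 and 7.05 FPKM (0.34, SE 0.25; -0.082 once centred). Htr4, coupled to Gs, was depleted from 1.42 to 1.02 FPKM in chow (-0.48, SE 0.34) and from 1.58 to 1.07 FPKM after the high-fat diet (-0.57, SE 0.35). In the authors' deposited tables the q-values of serotonin receptors run from 0.000379 (Htr7 in both diets and Htr3a in chow) to 0.0364 (Htr5a), with 0.00877 and 0.00244 for Htr2c, 0.00103 for Htr3a after the high-fat diet, and 0.026 and 0.01 for Htr4. Another 8 annotated serotonin receptor genes, among them Htr1a, Htr1b and Htr2a, were not listed.

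The dopamine receptors of the Gs-coupled class went in opposite directions. Drd5 was enriched from 0.707 to 1.27 FPKM in chow (log2 fold 0.85, SE 0.42) and from 0.677 to 1.40 FPKM after the high-fat diet (1.05, SE 0.44). Drd1, which is abundant in the striatum, was listed after the high-fat diet only and was depleted from 1.89 to 1.13 FPKM, to 59.6% of input (-0.75, SE 0.42). The authors' deposited tables give q-values of 0.000379 for Drd5 in both diets and 0.00296 for Drd1. Drd2, Drd3 and Drd4, which are coupled to Gi/o, were not listed.

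All listed adrenergic receptors were enriched. Adra1b, coupled to Gq, had the highest fold of them in chow, from 4.66 to 9.36 FPKM (log2 fold 1.01, SE 0.28), and rose from 4.14 to 7.33 FPKM after the high-fat diet (0.82, SE 0.29). Adra2a, the main inhibitory autoreceptor of noradrenaline, had 3.36 and 4.79 FPKM in chow (0.51, SE 0.28) and 3.05 and 4.88 FPKM after the high-fat diet (0.68, SE 0.29). Adra2b, of the same subgroup, stayed under 1 FPKM, with 0.438 and 0.757 FPKM in chow (0.79, SE 0.46) and 0.368 and 0.675 FPKM after the high-fat diet (0.87, SE 0.50). Adrb1, coupled to Gs, was listed in chow only, with 1.87 and 2.79 FPKM (0.58, SE 0.36). The q-values in the authors' deposited tables run from 0.000379 (Adra1b in both diets) to 0.0061 (Adrb1). The other 5 annotated adrenergic receptor genes were not listed.

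Hrh3, the histamine receptor that acts as an inhibitory receptor on histamine neurons and on the terminals of others, was among the most abundant of all listed receptors. It had 24.5 FPKM in the chow input and 50.8 FPKM in the immunoprecipitate (log2 fold 1.05, SE 0.25), and 22.7 and 41.1 FPKM after the high-fat diet (0.86, SE 0.25). The authors' deposited tables give q = 0.000379 in each diet. Hrh1, Hrh2 and Hrh4 were not listed. The window before its start (RefSeq, GRCm38.p6, chr2:180104408-180104657, minus strand) is shown as that of the monoamine receptor with the highest level, with GGGCGG on either strand in capitals.
Hrh3: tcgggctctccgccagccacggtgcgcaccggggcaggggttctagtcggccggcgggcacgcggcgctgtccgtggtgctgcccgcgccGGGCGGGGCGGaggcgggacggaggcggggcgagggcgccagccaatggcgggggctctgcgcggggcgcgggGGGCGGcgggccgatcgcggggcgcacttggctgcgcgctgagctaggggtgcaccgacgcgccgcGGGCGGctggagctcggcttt
This window holds 4 matches of GGGCGG over both strands, and 80.8% of its bases are G or C. Over the first listed start of each gene, 15 of the 28 members with an entry (53.6%) had a GGGCGG on either strand, beside 32.9% of all 27025 genes in the promoter table. CANNTG was found in 12 of 28 (42.9%, all genes 66.0%) and TATAAA, the TATA box, in 1 of 28 (3.57%, all genes 13.0%). Such a match describes the letters only.

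By transmitter, 8 of 11 glutamate receptors, 4 of 8 cholinergic receptors and 10 of 11 monoamine receptors listed in chow were enriched, and 10 of 13, 5 of 7 and 10 of 12 after the high-fat diet. By mechanism, 8 of 14 channel subunits and 14 of 16 G protein coupled receptors were enriched in chow, and 10 of 14 and 15 of 18 after the high-fat diet. Over all listed tests 53.8% and 55.2% were enriched, and the channel subunits in chow (57.1%) and the cholinergic receptors in chow (50.0%) lay near that share. All Gq-coupled receptors that were listed were enriched, 4 in chow and 5 after the high-fat diet. Of those coupled to Gi/o, 7 of 8 and 8 of 9 were enriched, Grm3 being the exception in both diets. Gs-coupled receptors had 3 of 4 enriched in chow and 2 of 4 after the high-fat diet, with Htr4 depleted in both and Drd1 in the latter. These shares were not tested against each other, and they cover only receptors that passed the authors' test.

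The 3 genes that match by name alone were each listed in 1 table. Htra2, a mitochondrial serine protease, had 10.6 and 18.9 FPKM in chow (log2 fold 0.83, SE 0.40), but its deposited span also covers Loxl3 and Aup1. Grid2ip had 1.29 and 3.25 FPKM in chow (1.33, SE 0.91). In the authors' deposited table the q-values are 0.000379 for Htra2 and 0.0237 for Grid2ip. Htra3, a secreted serine protease, fell from 1.35 to 0.142 FPKM after the high-fat diet, to 10.6% of input (-3.24, SE 1.38).

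Genes that work with these receptors were read from lists chosen by function. Beside them, 53.8% of all listed tests were enriched in chow and 55.2% after the high-fat diet. Of 11 listed neuron markers 10 were enriched in chow. The lists were not tested against these shares. Of 14 auxiliary subunits of AMPA and kainate receptors, 5 were enriched and 0 depleted in chow (median log2 fold 0.59), and 5 enriched and 1 depleted after the high-fat diet (0.46). Cacng3, which brings AMPA receptors to the membrane, led them in chow with 18.3 and 31.1 FPKM (0.77, SE 0.33), and Gsg1l was lowest with 13.2 and 16.3 FPKM (0.31, SE 0.24; below the centre of all tests). The depleted one was Shisa7 (-0.41, SE 0.28). Scaffolds and kinases of the postsynaptic density had 7 enriched and 2 depleted of 20 in chow (0.43), and 8 and 1 after the high-fat diet (0.57). Dlg4, which encodes the scaffold PSD-95, was highest in chow with 272 and 401 FPKM (0.56, SE 0.31), while Homer3 was lowest at 0.664 and 0.174 FPKM (-1.93, SE 2.06). Pick1 shares a deposited locus with another gene and was not counted.

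Modulators of nicotinic receptors and enzymes that break down acetylcholine had 6 enriched and 1 depleted of 8 in chow (median 0.80). After the high-fat diet 5 were enriched and 1 depleted (0.84). The medians of the neuron markers were 0.62 and 0.74. Lypd6, a membrane protein that binds nicotinic receptors, had 14.6 and 39.6 FPKM in chow (log2 fold 1.44, SE 0.51). Bche, butyrylcholinesterase, fell from 2.23 to 0.701 FPKM in chow (-1.67, SE 0.56), whereas Ache, acetylcholinesterase, rose from 26.5 to 55.6 FPKM (1.07, SE 0.24). Of 9 genes for the uptake and breakdown of monoamines, Slc29a4, a low-affinity transporter, was enriched in chow (0.68, SE 0.29) and after the high-fat diet (0.63, SE 0.30), and Slc18a2, the vesicular monoamine transporter, was depleted in chow (-0.37, SE 0.24).

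G protein alpha subunits had 4 enriched and 3 depleted of 12 in chow (median 0.36) and 6 and 3 after the high-fat diet (0.36), both medians below the centre of all tests. Gnas, the stimulatory subunit Gs, was highest in chow with 1394 and 2345 FPKM (log2 fold 0.75, SE 0.30), and Gna12 lowest with 31.2 and 7.92 FPKM (-1.98, SE 0.27). Regulators of receptor signalling had 11 enriched and 1 depleted of 19 in chow (0.56) and 11 and 2 after the high-fat diet (0.60). Among these, Rgs16, which speeds the switching-off of G proteins, had 8.15 and 17.1 FPKM in chow (1.07, SE 0.27) and Grk3, a receptor kinase, 15.0 and 10.0 FPKM (-0.58, SE 0.25). Among 24 subunits of the inhibitory GABA-A and glycine channels, 7 were enriched and 1 was depleted in chow (median 0.62) and 8 and 1 after the high-fat diet (0.65), from Gabrd (1.35, SE 0.33) to Gabrr2 (-1.93, SE 0.96) in chow.

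**Figure D2:**
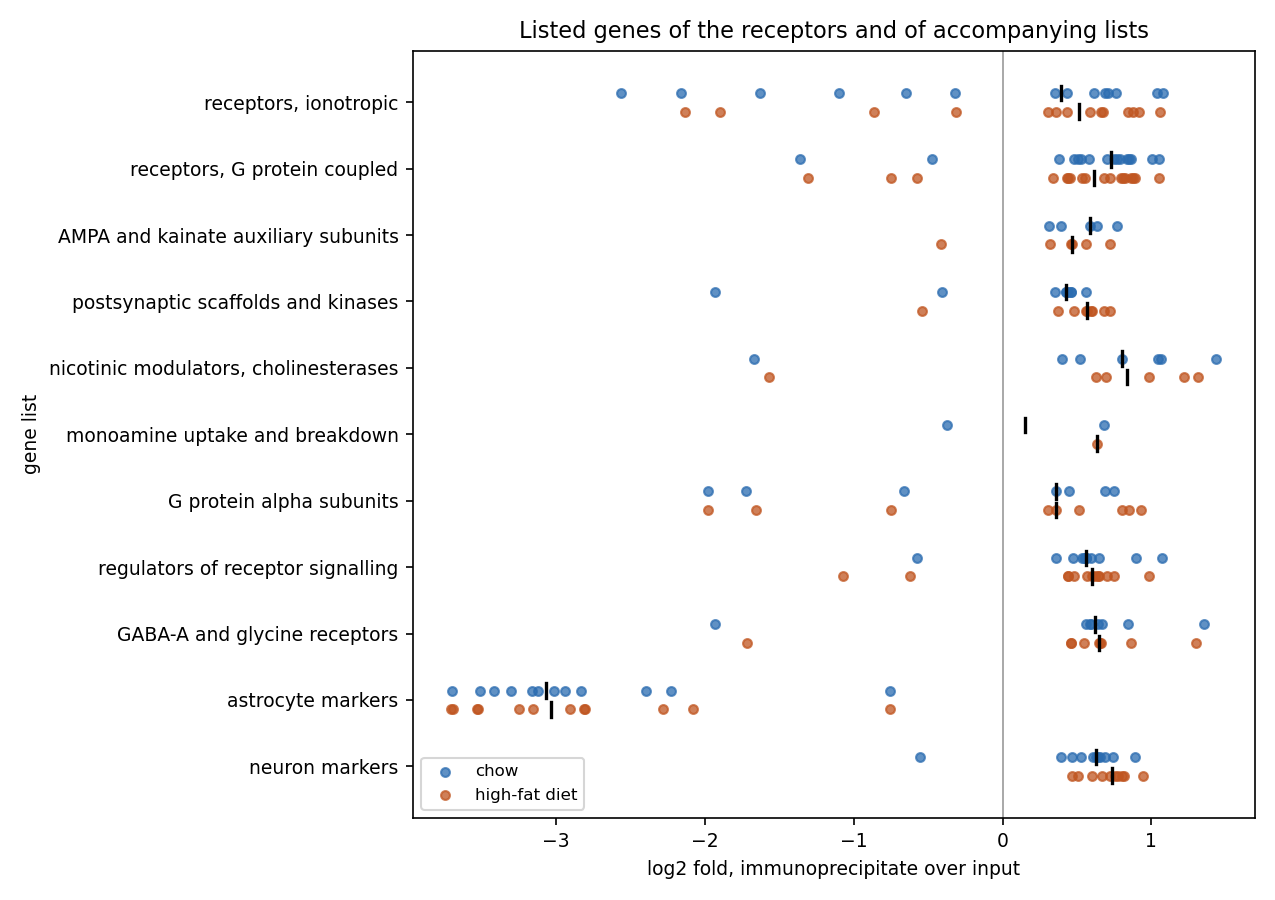
Log2 fold of immunoprecipitate over input (x axis) for each listed gene of the receptors, of the accompanying lists and of 2 marker lists (y axis), in chow (blue) and high-fat diet (orange), with black bars at list medians. Enriched receptors of both kinds lie between 0.31 and 1.08, the lowest receptors are Chrnb3 and Chrna6, and the medians of the astrocyte markers are -3.07 and -3.03.

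Whether short high-fat feeding altered the enrichment of these receptors was examined next. Only receptors listed in both tables could be compared, so one that was significant in just 1 diet is left out. Of 26 such receptors, all 26 had the same direction in each table, 20 enriched and 6 depleted, as had 5553 of all 5554 tests listed in both. For 24 of them, with at least 1 FPKM in each diet, the difference in log2 fold, high-fat less chow, was tested with a two-sided z-test, centred on the median of all 5149 such tests. No receptor and 0% of all tests passed at an adjusted p of 0.05, and 1 of the 5149 tests had an unadjusted p under 0.05. With no difference at all, a share of about 0.05 would be expected there. The SE thus appear too wide for these differences, and so do the intervals built from them. The lack of a pass therefore says little about the diets. The differences ran from -0.20 (Hrh3) to 0.42 (Chrnb3) and 22 of 24 were smaller than 0.2.

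The largest difference was that of Chrnb3, 0.42 with a 95% interval from -0.72 to 1.57. Chrna6 followed with 0.25 (-0.83 to 1.34) and Hrh3 with -0.20 (-0.89 to 0.49), and all of these intervals hold 0. The half-widths of the intervals ran from 0.64 to 1.34 log2 units over the 24 receptors. A difference within its half-width could not be told from 0 with these SE, and adjustment over all tests needs a larger one still. The test does not show that the diets act alike. On simulated data with noise set to these SE the test found 12.0% of the shifts of 1 log2 unit, 74.5% of those of 2 and 92.5% of those of 3. In the deposited data only 1 of 5149 tests had an unadjusted p under 0.05, fewer than noise of that size would give. The simulated setting thus differs from the data, and these shares may not hold for it.

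**Figure D3:**
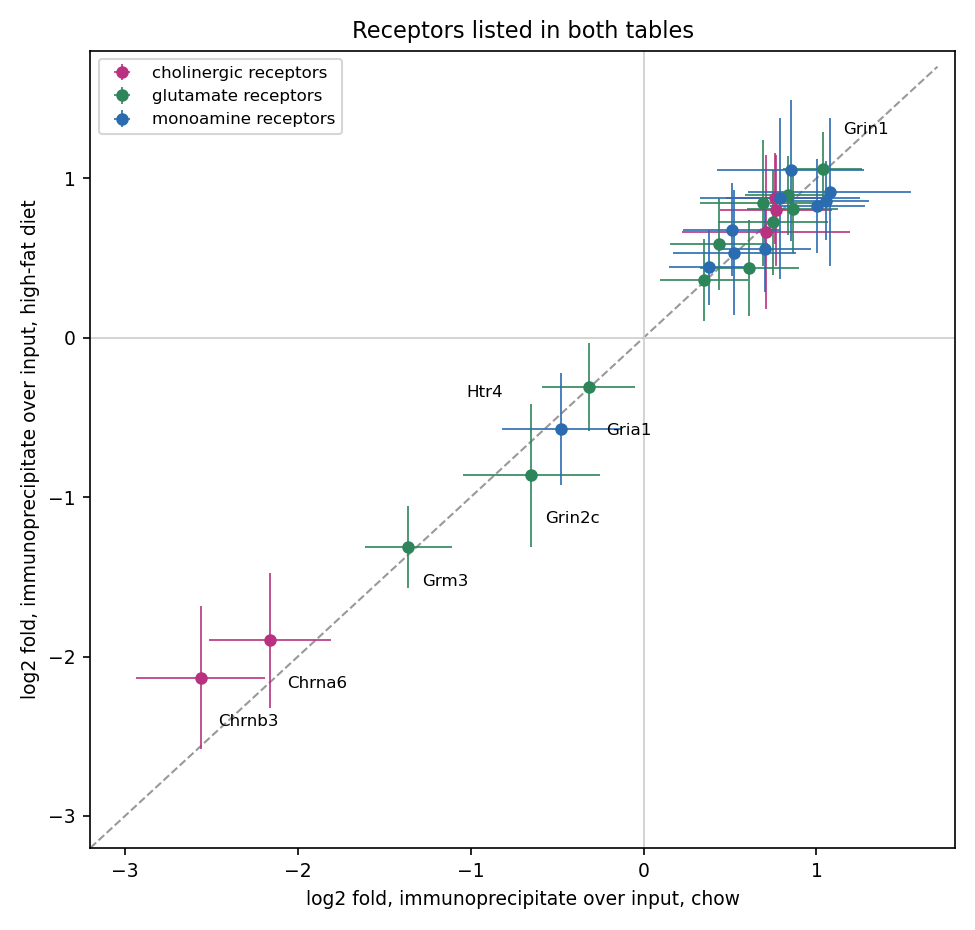
Log2 fold of immunoprecipitate over input in chow (x axis) and after the high-fat diet (y axis) for the 26 receptors listed in both tables, with SE from the deposited statistic as error bars and a dashed line of equal folds. The points follow the line, and the 6 depleted receptors (Chrnb3, Chrna6, Grm3, Grin2c, Htr4 and Gria1) are depleted in both diets.

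Levels between the diets were compared without a test, since each group has a single value and the scaling between tables is not stated. Over all 5149 tests the median log2 ratio of high-fat over chow was -0.015 in input and -0.011 in immunoprecipitate. The 24 receptors had a median of -0.11 in input and -0.057 in immunoprecipitate. Only 9 of the 5149 tests had an input ratio of -1 or lower, and 2 of them were Chrnb3 and Chrna6. Their input after the high-fat diet stood at 49.0% and 49.9% of the chow input (log2 ratios -1.03 and -1.0), and their immunoprecipitate at 66.0% and 59.7% of that in chow. The other 22 receptors had input ratios between -0.30 (Chrna4) and 0.19 (Htr3a). Among the other tests with so low a ratio were Ttr, abundant in the choroid plexus, and Gh and Cga, which encode pituitary hormones.

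Input levels of some other genes of midbrain dopamine neurons, looked up after these values were seen, were also lower after the high-fat diet. Slc6a3, the dopamine transporter, had 37.1 FPKM in the chow input and 18 FPKM in the high-fat input, and En1, a homeobox gene of the midbrain, had 2.74 and 1.19 FPKM. Both were also among the 9 tests with the lowest input ratios. Aldh1a1, an aldehyde dehydrogenase of these neurons that other cells also carry, stood higher, at 74.1% of its chow input (155 and 115 FPKM). Of 10 such markers 6 were listed in chow and 3 after the high-fat diet, all depleted on tagged ribosomes, and no listed one was at 0. In chow Slc6a3 stood at 8.98%, Aldh1a1 at 13.4% and En1 at 19.3% of input, while Th (61.2%), Lmx1b (61.4%) and Slc18a2 (77.2%) were depleted by less and were not listed after the high-fat diet. Over the 3 markers listed in both tables (Slc6a3, En1 and Aldh1a1) the summed level was 195 FPKM in the chow input and 134 FPKM in the high-fat input, and 24.6 and 15.2 FPKM in immunoprecipitates, most of it from Aldh1a1. The part of midbrain tissue in the values of Chrna6 and Chrnb3 was not tested. Without this pair, 24 genes of the name rule were enriched and 6 depleted in chow, and 25 and 6 after the high-fat diet.

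**Figure D4:**
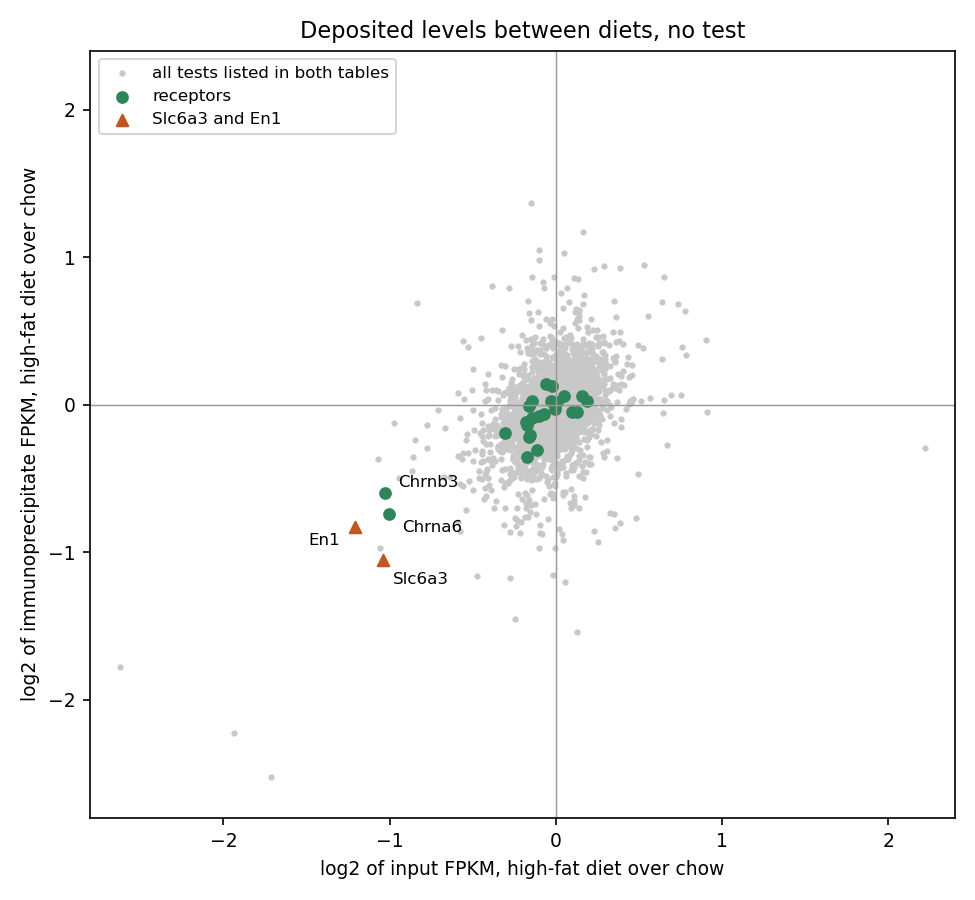
Log2 ratio of deposited FPKM, high-fat diet over chow, in input (x axis) and immunoprecipitate (y axis), without errors. Coloured points are 24 receptors (green) and Slc6a3 and En1 (orange triangles). Grey points are the 5149 tests listed in both tables with at least 1 FPKM in each diet. Chrna6 and Chrnb3 lie near -1 on the x axis beside Slc6a3 and En1, apart from the other receptors. Aldh1a1, the other marker of midbrain dopamine neurons listed in both tables, stood at 74.1% of its chow input and is not marked.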

How the data were processed

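Hypothalamic input RNA and ribosome-bound RNA were sequenced in 16 libraries, 4 per group. Per the labels' protocols, RNA was purified with RNeasy Micro columns, amplified with the Ovation RNASeq V2 system and made into libraries with Nextera XT. Per the submitters' processing notes the tools were Cuffdiff, Cufflinks 2.2.1, StringTie 1.3.4d and HISAT2 2.1.0, with build GRCm38.p6; no settings were named. The authors deposited, per diet, FPKM per group, a log2 fold, a test statistic (a score), p-values and q-values, for significant entries only. Since these are not counts per library, no model was refitted and 0 columns of single samples were set aside. What the p-values rest on is not stated. Where they rest on the spread between libraries, that spread may be technical, as the labels do not say that the libraries came from separate animals.

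Log2 folds were recomputed from the deposited FPKM without a pseudocount, and a call is the authors' q at 0.05. SE is log2 fold over the deposited statistic. The difference between diets used a z-test (two-sided, adjusted by Benjamini-Hochberg) over the 5149 tests that reached 1 FPKM in either fraction of both diets, and was tested on simulated data. Entries sharing a locus count as 1 test. Gene types came from GENCODE M21. Promoters came from RefSeq, with an entry for 28 of 39 genes. Python 3.11.15, pandas 2.3.3, numpy 2.4.6, SciPy 1.17.1 and matplotlib 3.10.9 were used.

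The members and lists were chosen with earlier results of these data known. Values are given for the highest and lowest fold of each of 11 families, for genes at 10 FPKM or a 2-fold difference, and for the 3 largest differences between diets; of each accompanying list the highest and lowest in chow are named, and others named there were chosen after their values were seen. Some members count in the totals and are not reported by name here.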

Additional observations from a re-analysis of the deposited data

How the results depend on the processing

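Counted over all 39 genes of the name rule, a limit of at least 2-fold left 5 enriched and 5 depleted in chow, with a median log2 fold of -0.045. After the high-fat diet it left 2 and 4, with a median of -1.60. The limit removed most enriched genes, whose folds were modest, and fewer of the depleted ones. Over all listed chow tests it left 4.38% enriched and 28.7% depleted. Centred on the median of listed tests, the medians were 0.24 in chow and 0.13 after the high-fat diet, and the folds of Gria4 (-0.062 in both diets), Htr2c in chow (-0.029), Grik3 (-0.12) and Htr5a (-0.082) after the high-fat diet turned negative. Of 65 single folds, centring moved 45 by more than their SE, reversed these 5 and left 15 within it. At the authors' q of 0.01, 16 of 65 single folds no longer passed and 49 did. With a pseudocount of 1, 13 values moved by more than their SE. No z-test of the difference between diets passed adjustment under the 5 alternatives run, and 1 or 2 tests in each had an unadjusted p under 0.05. No paired analysis was possible because each table holds 1 value per group and its columns carry no replicate numbers, and for the same reason no library could be left out. Read depth is unknown, so levels under 1 FPKM carry an error that the tables show only through the statistic.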
